A study of Homo sapiens with 6 samples.

Results

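The 39 HOX genes of the human genome were examined for peaks of N6-methyladenine (6mA) in MDA-MB-453 cells, an established human breast cancer line. They were taken as every protein-coding gene whose symbol is HOXA, HOXB, HOXC or HOXD followed by a number, and they are 39 of 20163 protein-coding genes in the annotation used. In 6mA-IP-seq, sheared genomic DNA is pulled down with an antibody against 6mA and sequenced, and a peak is a stretch where the reads exceed the local background. The cells received either a scrambled siRNA (Control) or an siRNA against N6AMT1 (si-N6AMT1), each at 10 nM for 48 hours, and the study treats N6AMT1 as the enzyme that writes 6mA. Each group held 2 immunoprecipitated libraries, called biological replicates, of 1 cell line, so p-values measure the spread between these libraries. The N6AMT1 transcript was not measured in these libraries, so the knockdown was not checked here.

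HOX genes encode homeodomain transcription factors that give cells their position along the body axis. They lie in 4 clusters that arose by duplication, and genes with the same number in different clusters are paralogues that form groups numbered up to 13. Within a cluster the order of the genes follows the order in which they are expressed from head to tail. Polycomb proteins keep the clusters silent and Trithorax proteins keep them active, and the clusters are known as stretches rich in CpG islands and poor in mobile repeats. Changed HOX expression is well known in breast cancer, including that of HOXB13 and of HOTAIR, a noncoding RNA transcribed within the HOXC cluster.

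The clusters were compact. HOXA (11 genes, minus strand) spanned chr7:27132612-27239710, HOXC (9 genes, plus strand) chr12:54332615-54449814 and HOXD (9 genes, plus strand) chr2:176957449-177055635, with lengths of 107, 117 and 98.2 kb. HOXB (10 genes, minus strand) spanned chr17:46605888-46806112, a length of 200.2 kb. In HOXB, the genes from HOXB1 to HOXB9 filled a gene-dense part of 105 kb, and a spacer of 91.2 kb without HOX genes lay between HOXB7 and HOXB13. The HOX genes had a median length of 4216 bp (range 1677 to 56043), against 27219 bp for all protein-coding genes. All coordinates are on GRCh37 (hg19).

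The 4 peak lists held 30451 and 33410 peaks in Control replicates 1 and 2 and 38847 and 40844 in si-N6AMT1 replicates 1 and 2. The lowest local background in each list rose in the same order, from 1.05 and 1.36 to 1.41 and 1.53 overlapping fragments. List length and background thus moved with the groups, and their part in differences of peak counts between groups was not tested. For this reason each cluster was compared with the rest of its own chromosome in the same library. Of the regions found in Control, 58.5% of those of replicate 1 and 53.3% of those of replicate 2 were called in both replicates, and in si-N6AMT1 57.2% and 54.4%.

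**Figure D1:**
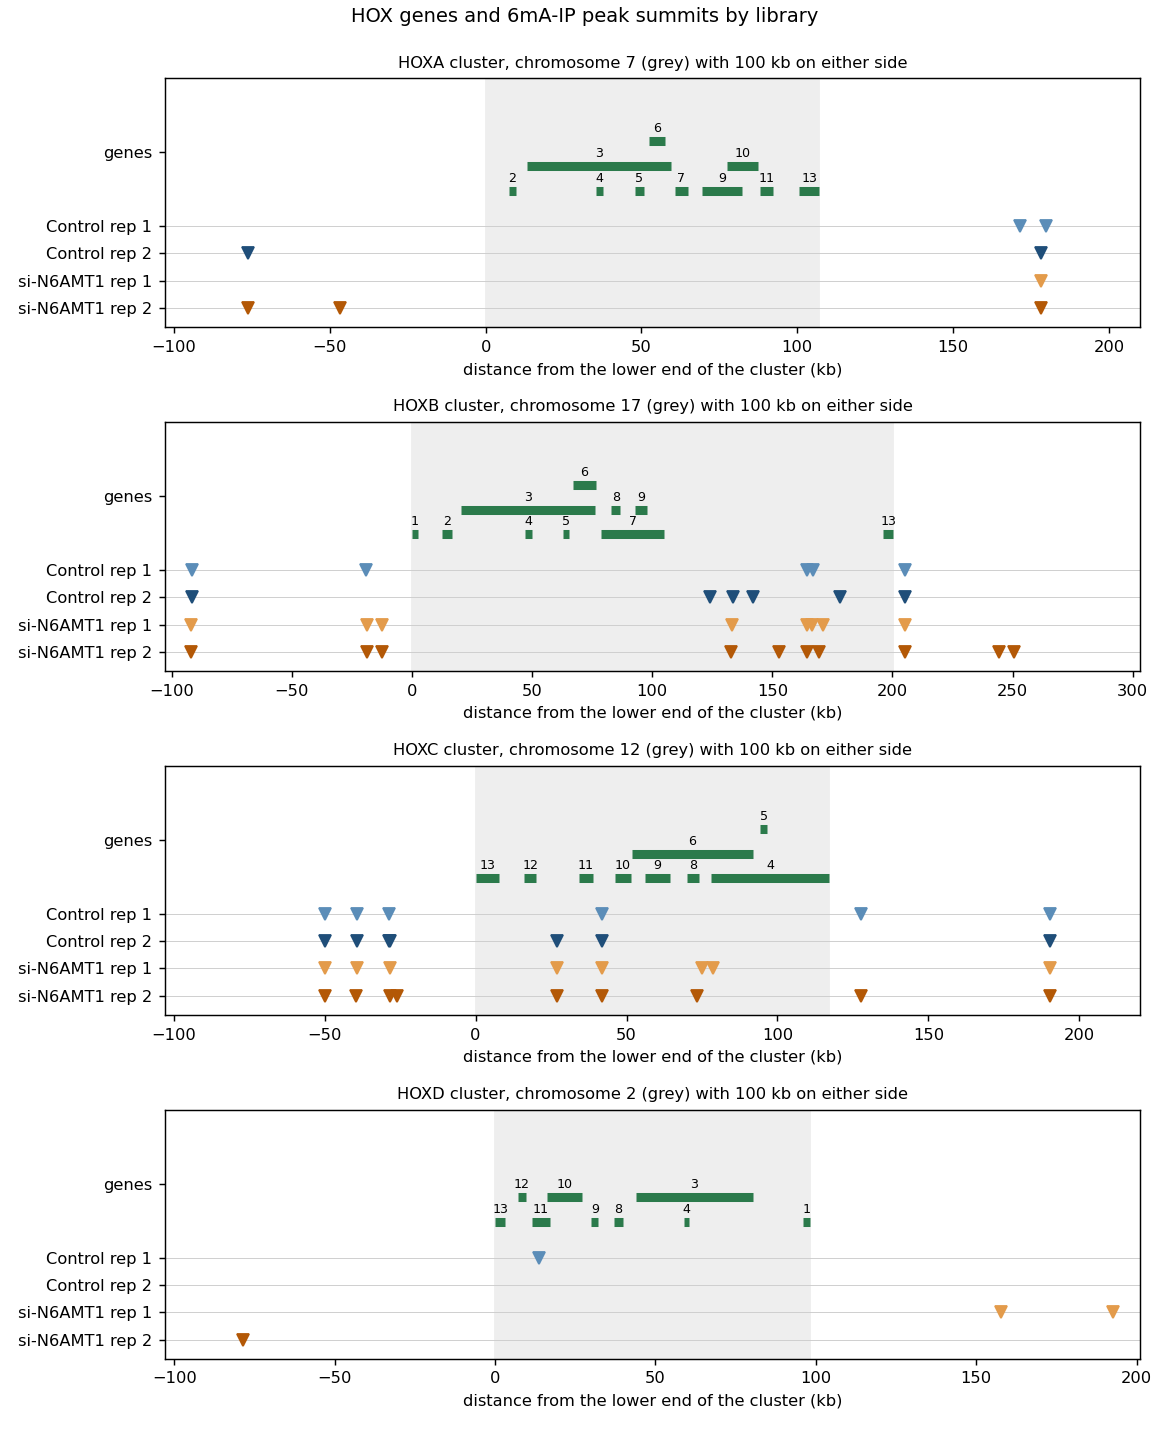
Peak summits (triangles, 1 row per library) and the HOX genes plotted (green bars, numbered within the cluster, stacked where they overlap) against the distance in kb from the lower end of each cluster. Grey marks the cluster, with 100 kb shown on either side. No library had a summit in HOXA or among HOXB1 to HOXB9, the HOXB summits lay in the spacer before HOXB13, and 1 position in HOXC was called in all 4 libraries.

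The first question was how many peaks the HOX clusters held. HOXA held 0 peaks in each of the 4 libraries, HOXD held 1 peak in Control replicate 1 and 0 in the other libraries, HOXC held 1 and 2 peaks in the Control libraries against 4 and 3 under si-N6AMT1, and HOXB held 2 and 4 in the Control libraries against 4 and 4 under si-N6AMT1. Every HOXB peak lay in the spacer, and the part from HOXB1 to HOXB9 held 0 peaks in each library. Together HOXA, HOXB1 to HOXB9 and HOXD, 310 kb and 29 genes, held 1 peak over the 4 lists, where their chromosomes gave 3.29, 3.54, 4.37 and 4.51 peaks per library. This grouping was made after its values were seen and carries no test. At 107 kb, a count of 0 in HOXA allowed a density of up to 34.4 peaks per Mb in a library (upper limit of the exact 95% Poisson interval), which includes the 13.3, 14.4, 17.1 and 17.3 peaks per Mb of the rest of chromosome 7. A single library could therefore not show a depletion in a cluster of this size.

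The 4 clusters, 523 kb in all, held 4 and 6 peaks in the Control libraries against 8 and 7 under si-N6AMT1. The densities of the 4 chromosomes gave 6.01, 6.50, 8.0 and 8.26 peaks for the same lengths. The pooled ratio of observed to chromosome-based peaks was 0.869 (exact sign-flip test over 4 libraries, p = 0.25). The smallest p that this test allows is 0.125. It therefore cannot decide whether the clusters differ from their chromosomes. The ratio was 0.666, 0.923, 1.00 and 0.847 in the 4 libraries, so 3 were below the chromosome and si-N6AMT1 replicate 1 was level with it. Without the HOXB spacer and HOXB13, a setting chosen after every HOXB peak was seen to lie in the spacer, the clusters held 2, 2, 4 and 3 peaks against 4.89, 5.31, 6.41 and 6.62 from the chromosomes. That ratio was 0.474. Leaving out the part with the peaks had to lower it, so it carries no test.

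Windows of the same length along the same chromosome gave a scale for these counts, as a description. On chromosome 7, 8.91% of 1437 windows of the length of HOXA also held 0 summits in the sum of the 4 libraries, and the median window held 6. HOXD, with 1 summit, stood among the 42.8% of windows of chromosome 2 with no more than that. HOXB held 14 summits and HOXC 10, and 72.4% of windows on chromosome 17 and 75.3% on chromosome 12 held no more. HOXA was thus the emptiest of the clusters on this scale, and HOXB and HOXC were above the median of their chromosomes.

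**Figure D2:**
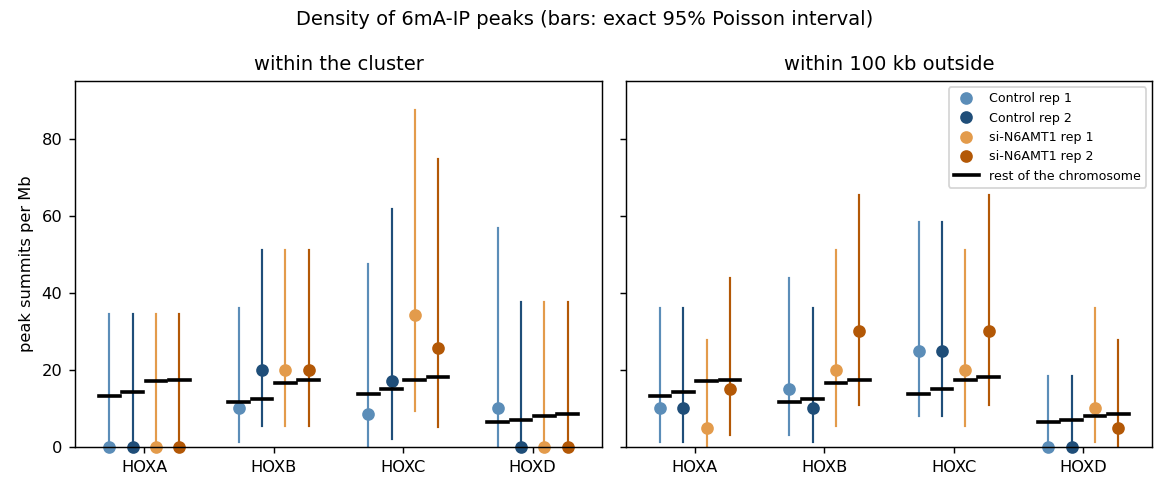
Peak summits per Mb in each cluster (left) and in its 100-kb flanks (right) for each library (points, with exact 95% Poisson intervals of the counts), and the density of the rest of the same chromosome in that library (black lines). The 4 HOXA points lie at 0 within the cluster, and the interval of each point includes its black line.

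The second question was whether knockdown changed these counts. The mean was 5 ± 1.41 peaks in Control and 7.5 ± 0.707 in si-N6AMT1 (SD, n = 2 each), a difference of 2.5 peaks with p = 0.333 in the exact permutation test, the smallest p that 2 libraries against 2 allow. Both si-N6AMT1 counts were above both Control counts. The chromosomes rose as well, and the ratio to the chromosome differed by 0.129 between groups (exact permutation test, p = 0.667). When each list was shortened to the 30451 peaks with the highest −log10 p, the difference in peaks was 0.

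The flanks, 100 kb on either side of each cluster, held 10 and 9 peaks in the Control libraries against 11 and 16 under si-N6AMT1, where the chromosome density gave 9.03, 9.79, 11.8 and 12.2. Their pooled ratio was 1.07 (exact sign-flip test, p = 0.625), and it was 0.979 without si-N6AMT1 replicate 2. With flanks of 50 and 200 kb the ratio was 1.26 and 1.12 (each p = 0.125, the smallest the exact sign-flip test allows). The flanks of HOXC held 5, 5, 4 and 6 peaks, where the density of chromosome 12 gave 2.74, 3.01, 3.47 and 3.61. Those of HOXD held 0, 0, 2 and 1, where chromosome 2 gave 1.28, 1.41, 1.60 and 1.72. The HOXA flanks held 2, 2, 1 and 3 peaks and the HOXB flanks 3, 2, 4 and 6. The mean over the 4 flanks was 9.5 ± 0.707 in Control and 13.5 ± 3.54 in si-N6AMT1 (SD, n = 2 each; exact permutation test, p = 0.333). The ratio to the chromosome differed by 0.106 between groups (exact permutation test, p = 0.667), and with lists of equal length the difference in flank peaks was 0.5 (exact permutation test, p = 1).

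Few HOX genes carried a peak. Of the 39, the number with a peak in the gene body was 1 and 0 under Control siRNA but 2 and 2 after knockdown, where 29.1%, 30%, 33.6% and 34% of all protein-coding genes had one. The HOX genes are short, so the fairer scale is peaks per Mb of gene body. On that scale the HOX genes had 3.03, 0, 6.06 and 3.03 peaks per Mb against 10.3, 11.1, 13.1 and 13.5 for all genes. The density was lower in the HOX genes in each library, but each upper limit of the HOX density (16.9, 11.2, 21.9 and 16.9 per Mb) was above the value of all genes, so no library alone showed a difference.

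Over the 4 libraries, 4 of the 39 HOX genes had a peak in at least 1 library, where 44.6% of all protein-coding genes had one. Only HOXC6 had a peak in 2 libraries, at different positions, and none had one in all 4, while 34.5% of all genes had a peak in at least 2 and 20.4% in all 4. HOXD11 (ENSG00000128713, chr2:176968944-176974482) had 1 peak, in Control replicate 1 only, 2.12 kb into the gene, with a fold of 6.35. HOXC8 (ENSG00000037965, chr12:54402769-54406553) had 1 peak, in si-N6AMT1 replicate 2 only, in an exon, with a fold of 6.51. HOXC4 (ENSG00000198353, chr12:54410715-54449814) had 1 peak, in si-N6AMT1 replicate 1 only, 0.404 kb after its start, with a fold of 5.54. HOXC6 (ENSG00000197757, chr12:54384408-54424607), whose annotated span covers HOXC8 and the start of HOXC4, had 2 peaks in si-N6AMT1 replicate 1 and 1 in replicate 2. These are the same peaks as those of HOXC4 and HOXC8 and 1 further peak at chr12:54407580-54407950 (fold 10.4). None of these gene-body peaks was called in a second library. HOXD11, HOXC8 and HOXC4 are posterior, middle and anterior members of their clusters, respectively.

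The distance from the start of a HOX gene to the nearest summit was long. Its median over the 39 genes was 45.2 and 85.8 kb in the Control libraries against 67.8 and 62.4 kb under si-N6AMT1, while it was 39.2, 37.1, 28.9 and 27.6 kb for all protein-coding genes. Neighbouring HOX genes share their nearest summit, so the 39 distances are not independent. The HOXA genes had medians of 112, 95.9, 118 and 90.9 kb, the longest of the clusters in Control replicate 1. The HOXD genes, with medians of 16.4, 169, 128 and 108 kb, were the farthest in the other libraries. The short HOXD median of Control replicate 1 came from its single peak in HOXD11. The HOXC genes were the nearest in Control replicate 2 and both si-N6AMT1 libraries, with medians of 25.7, 14.3, 9.99 and 9.99 kb.

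A summit lay within 10 kb of 6, 3, 6 and 6 HOX gene starts, or 15.4%, 7.69%, 15.4% and 15.4%. For all protein-coding genes that share was 16.1%, 16.9%, 20.8% and 21.5%. The HOX starts near a summit in every library were those of HOXB13 (5.04 to 5.17 kb), HOXC10 (4.43 to 4.49 kb) and HOXC11 (7.38 to 7.49 kb). The latter pair lie on either side of 1 region called in all 4 libraries. For HOXC11 that region held the nearest summit in Control replicate 1 only. In the other libraries the summit nearest to HOXC11 lay in HOTAIR. Around HOXA, 218 kb held no summit of any library, the longest such stretch at the clusters, followed by 144 kb at HOXD, 136 kb at HOXB1 to HOXB9 and 52.9 kb at HOXC. The nearest summit beyond HOXA13 lay 64.4 kb away and was called in 1 library.

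**Figure D3:**
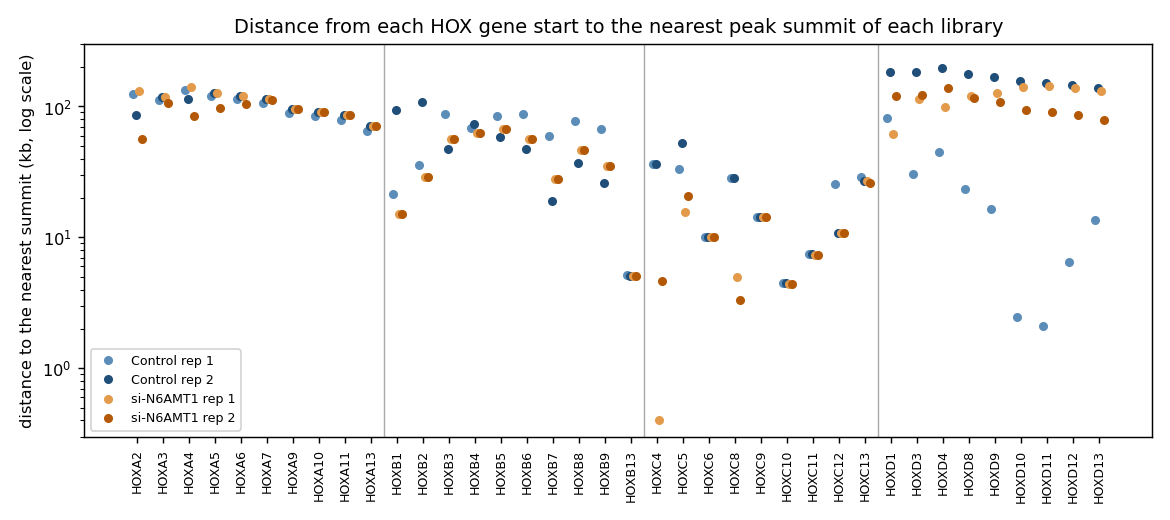
Distance in kb (log scale) from the start of each HOX gene plotted to the nearest peak summit, with 1 point per library. HOXB13, HOXC10 and HOXC11 have all 4 points below 10 kb, the HOXA genes shown have every point at 56.5 kb or more, and the low HOXD points come from Control replicate 1.

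The peaks of the 4 lists fell into 35 merged regions, 15 in the clusters and 20 in the flanks. Of the 35, 7 were called in all 4 libraries, 5 in 3, 3 in 1 library of each group, 1 in both si-N6AMT1 libraries alone, 0 in both Control libraries alone, and 19 in 1 library. The same classes took 16.7%, 13%, 12.2%, 5.86%, 2.62% and 49.6% of the 72537 regions of the genome. Of the 15 cluster regions, 1 was called in all 4 libraries and 10 in 1 library only.

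Sequences at the summits of selected regions called in at least 3 libraries are shown. Most of them illustrate strands made mostly of purines (A and G) or of pyrimidines (C and T). This feature is not common to all such regions. Of the 12 called in at least 3 libraries, 6 had at least 80% purines on the purine-richer strand. Those of the 12 that are not shown had 58.3%, 64.2%, 68.9%, 70.2%, 78.1% and 97.4%. Each sequence shown is the plus strand of GRCh37 over 151 bp centred on the strongest summit. Summits of a region differed between libraries, and the HOXB spacer sequence holds that of si-N6AMT1 replicate 2 only. Capitals mark runs of at least 10 bases that are all purines or all pyrimidines. The first is the only cluster region called in every library, the second lies in HOTAIR, the third upstream of HOXB13, the next 2 in the flanks of HOXC, and the last, in the HOXB spacer, shows a different kind of sequence.
HOXC10 upstream, chr12:54374282-54374432: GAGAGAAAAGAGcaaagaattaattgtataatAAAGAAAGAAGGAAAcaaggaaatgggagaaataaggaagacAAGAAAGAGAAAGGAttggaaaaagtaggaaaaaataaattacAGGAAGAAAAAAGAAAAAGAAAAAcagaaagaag
HOTAIR intron, chr12:54359421-54359571: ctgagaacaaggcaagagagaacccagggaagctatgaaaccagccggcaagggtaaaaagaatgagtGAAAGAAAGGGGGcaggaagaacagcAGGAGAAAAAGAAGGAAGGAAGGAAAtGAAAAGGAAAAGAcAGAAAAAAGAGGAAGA
HOXB13 upstream, chr17:46811094-46811244: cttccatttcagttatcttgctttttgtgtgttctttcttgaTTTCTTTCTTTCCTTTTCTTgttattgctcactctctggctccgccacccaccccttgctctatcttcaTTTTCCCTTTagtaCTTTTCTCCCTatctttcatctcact
LINC02381 intron, chr12:54522854-54523004: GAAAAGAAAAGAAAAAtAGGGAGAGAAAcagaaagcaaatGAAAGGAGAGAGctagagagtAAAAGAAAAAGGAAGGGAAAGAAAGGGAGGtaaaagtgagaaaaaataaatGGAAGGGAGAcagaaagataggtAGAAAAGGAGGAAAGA
HOXC13 upstream, chr12:54282710-54282860: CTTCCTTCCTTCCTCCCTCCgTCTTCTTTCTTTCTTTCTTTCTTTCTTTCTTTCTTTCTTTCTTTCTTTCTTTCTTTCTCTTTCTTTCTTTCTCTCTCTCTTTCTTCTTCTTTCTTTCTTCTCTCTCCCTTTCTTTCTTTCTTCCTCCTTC
HOXB spacer, chr17:46738788-46738938: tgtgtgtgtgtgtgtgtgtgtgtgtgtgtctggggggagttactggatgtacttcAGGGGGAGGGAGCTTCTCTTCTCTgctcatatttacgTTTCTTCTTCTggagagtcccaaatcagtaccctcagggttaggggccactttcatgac

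The region at chr12:54374105-54374635 was intergenic, 4.49 kb upstream of the start of HOXC10, a posterior gene of the HOXC cluster. Its fold over local background was 10.9 and 10.3 in the Control libraries against 8.05 and 6.92 under si-N6AMT1, with 30, 32, 34 and 31 fragments at the summit. Both Control folds were above both si-N6AMT1 folds, with means of 10.6 ± 0.394 and 7.48 ± 0.794 (SD, n = 2 each). The difference in fold of -3.13 had p = 0.333 in the exact permutation test, the smallest the design allows. The pileups of the groups overlapped, and the local background was 1.84 and 2.19 fragments in the Control libraries against 3.35 and 3.62 under si-N6AMT1. In the genome, 24.3% of the 12132 regions called in all 4 libraries had both Control folds above both si-N6AMT1 folds, and 16.9% had the opposite order.

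The region at chr12:54359299-54359734 lay in an intron of HOTAIR, 7.41 kb upstream of the start of HOXC11. It was called in 3 libraries, with folds of 8.15 in Control replicate 2 and 6.97 and 8.49 in si-N6AMT1. HOTAIR was the only one with a peak on a chosen list of noncoding genes of the clusters, 21 of which were found in the annotation, such as HOTTIP, HOTAIRM1 and the antisense genes. That list does not include LINC02086, described with HOXB. The listed MIR10A was not matched. The matched genes had a median length of 4.32 kb and included microRNA genes of 0.07 to 0.11 kb. The share of all noncoding genes with a peak was not counted, so the count on this list has no background beside it.

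In HOXB, 9 regions lay in the spacer. 7 of them overlapped introns or exons of LINC02086, a long noncoding gene that fills most of the spacer, 1 lay at a start of that gene and 1 was intergenic. The regions at chr17:46738740-46739421 and chr17:46770152-46771175 were called in 3 libraries each. The former had folds of 5.50 in Control replicate 2 and 5.02 and 7.03 in si-N6AMT1, and the latter 5.22 in Control replicate 1 and 6.56 and 7.09 in si-N6AMT1. The summits lay up to 450 bp apart in the former and up to 106 bp apart in the latter. Another, chr17:46772416-46773707, was called in replicate 1 of each group (4.60 and 5.17), with summits 521 bp apart. The other 6 were called in 1 library each, with folds from 4.83 to 9.08. At chr17:46810863-46811484, 5.06 kb upstream of HOXB13 and at the start of the gene ENSG00000242407, a region was called in all 4 libraries. Its folds were 10.1 and 10.5 in the Control libraries against 15.3 and 9.10 under si-N6AMT1. The 2 si-N6AMT1 values stood on either side of the Control values, and the groups overlapped (exact permutation test, p = 1).

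On the other side of HOXB, the region chr17:46593143-46593571, 15.0 kb downstream of the start of HOXB1, was called in both si-N6AMT1 libraries (8.59 and 6.82) and in no Control library. It was the only one of the 35 regions with that pattern, or 2.86%, against 5.86% of the regions of the genome. Its neighbour chr17:46586501-46587407 was called in both si-N6AMT1 libraries (6.73 and 6.86) and in Control replicate 1 (3.87). The summits of this neighbour lay up to 456 bp apart. The region chr17:46513781-46514490, near the outer edge of this flank, was called in all 4, with folds of 7.12 and 9.35 in the Control libraries against 10.3 and 5.69 under si-N6AMT1, which overlapped.

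The HOXC flanks held 4 of the 7 regions called in all 4 libraries, and those of HOXB held 2. Upstream of HOXC13, the first gene of the cluster, regions called in all 4 libraries lay at 49.8, 39.4 and 28.4 kb. The farthest of these, chr12:54282540-54283217, had folds of 13.3 and 10.3 in the Control libraries against 10.6 and 8.66 under si-N6AMT1, which overlapped. At chr12:54292941-54293745 the folds were 10.4 and 9.35 in the Control libraries against 8.60 and 8.48 under si-N6AMT1, with Control above. At chr12:54303447-54304674 they were 3.87 and 5.33 in the Control libraries against 5.59 and 5.34 under si-N6AMT1, with si-N6AMT1 above, although the higher Control and the lower si-N6AMT1 value were nearly equal. The summit of Control replicate 1 there, at 54303831, lay apart from the others (54304262 to 54304329). These folds were thus not all read at the same position. Beyond the other end of the cluster, chr12:54522519-54523280 in an intron of LINC02381 had folds of 8.79 and 11.4 in the Control libraries against 12.5 and 15.5 under si-N6AMT1, with 17, 26, 33 and 43 fragments. This region had the largest si-N6AMT1 fold among the 7, with means of 10.1 ± 1.86 and 14.0 ± 2.06 (SD, n = 2 each; exact permutation test, p = 0.333). A region at chr12:54460148-54460820, 10.6 kb beyond the cluster, was called in Control replicate 1 (7.32) and si-N6AMT1 replicate 2 (5.60).

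Of the 7 regions called in all 4 libraries, 2 had both Control folds above both si-N6AMT1 folds and 2 the opposite order, beside the 24.3% and 16.9% of the genome. The opposite order includes chr12:54303447-54304674, where the folds were not all read at the same position. The HOXA flanks held a region called in 3 libraries, chr7:27310535-27310935, 71.0 kb upstream of HOXA13 (7.77 in Control replicate 2, 7.04 and 6.05 in si-N6AMT1), and 1 called in replicate 2 of each group at chr7:27056303-27056753 (7.62 and 8.70). The HOXD flanks held 3 regions, each called in 1 library, the nearest 59.4 kb beyond HOXD1.

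**Figure D4:**
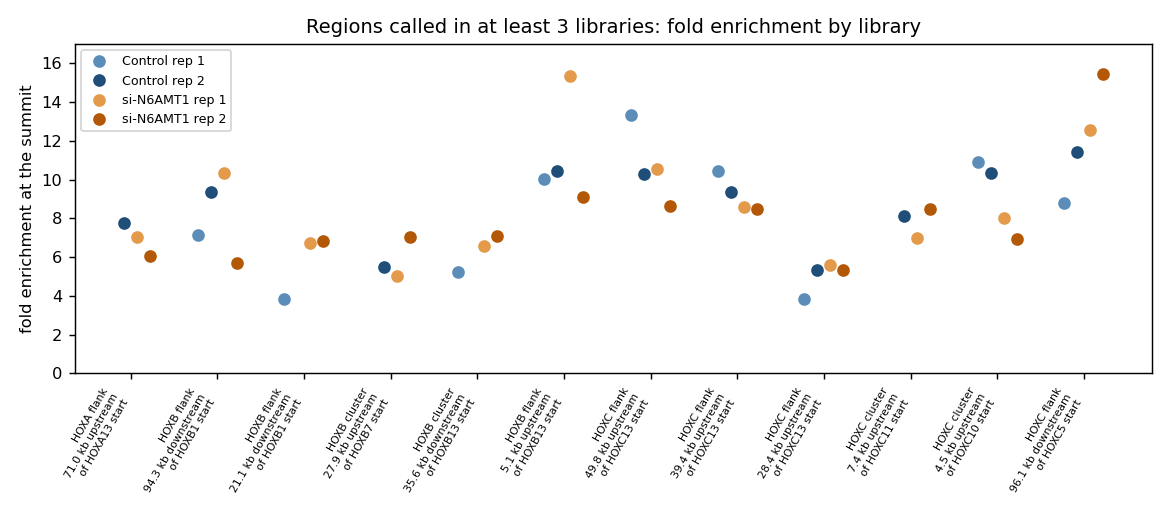
Fold enrichment at the summit in each library (points, no point where the library had no peak) for the 12 regions of the clusters and flanks called in at least 3 libraries, named by distance from the nearest HOX gene start. Among regions with 4 points, Control lies above si-N6AMT1 4.49 kb upstream of HOXC10 and 39.4 kb upstream of HOXC13. Control lies below 28.4 kb upstream of HOXC13, narrowly, and 96.1 kb downstream of the HOXC5 start.

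The purine share makes the likeness of the printed sequences countable. It is the percent of the 151-bp summit window that is purine on whichever strand has more of them, so a balanced window is near 50%. In all windows of that length on the 4 HOX chromosomes the median was 55.6%, and 0.206% reached 80%. Among the regions of these chromosomes called in 1, 2, 3 and 4 libraries, 8.92%, 15.6%, 24.4% and 30.2% reached 80%. At the HOX clusters and flanks, 5 of the 7 regions called in all 4 libraries reached it, 1 of the 5 called in 3, and 5 of the 23 called in 1 or 2. The values were 86.8% for the region upstream of HOXC10, 84.8% for that in HOTAIR, 81.5% upstream of HOXB13, 90.7% in LINC02381 and 99.3% and 97.4% for the 2 farther regions upstream of HOXC13. The region called only in si-N6AMT1 near HOXB1 had 100%. The repeatedly called regions of the HOXB spacer had 53.6% and 58.3%, and the first of them begins in a run of alternating T and G. The measure was chosen after the sequences had been seen, so these counts are a description.

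**Figure D5:**
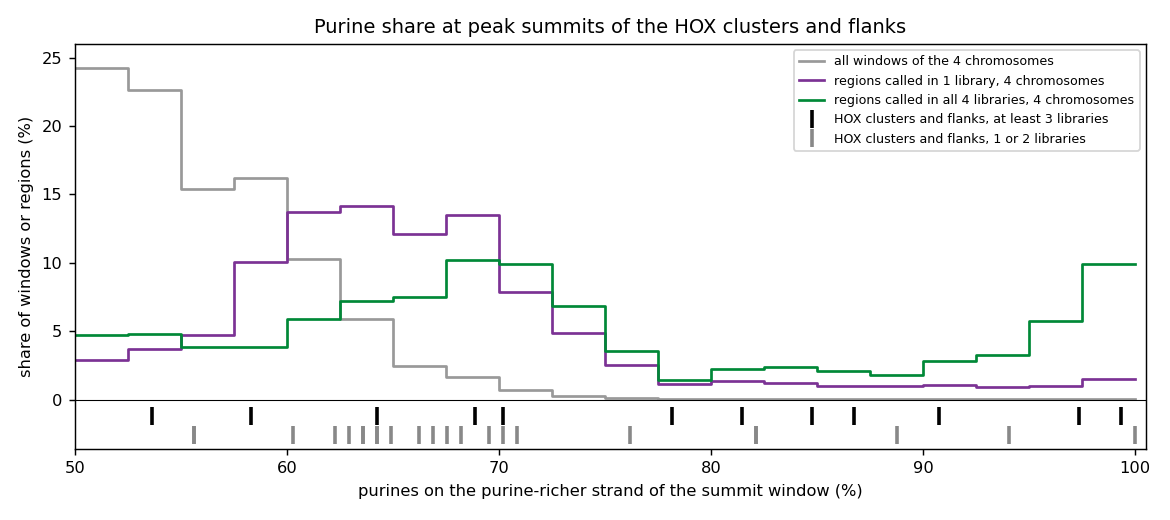
Share of purines on the purine-richer strand in 151-bp windows (x axis, percent), as distributions for all windows and for called regions of chromosomes 2, 7, 12 and 17 (lines, percent of each set), with each region of the HOX clusters and flanks as a tick below. Of the 12 regions called in at least 3 libraries, 6 lie at or above 80%, where 0.206% of all windows lie. Of all regions of these chromosomes called in 3 and in 4 libraries, 24.4% and 30.2% lie there.

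Sequence of this kind was not scarce in the clusters. Stretches where a 151-bp window reached a purine share of 80% numbered 4 in HOXA, 12 in HOXB, 10 in HOXC and 2 in HOXD, or 3.73, 5.99, 8.53 and 2.04 per 100 kb. The rest of chromosomes 7, 17, 12 and 2 had 1.80, 2.03, 1.76 and 1.54 per 100 kb. Of the 28 stretches in the clusters, 7 overlapped a peak in at least 1 library (25%) and 1 in all 4, against 32.2% and 9.24% of the 10304 stretches in the rest of the 4 chromosomes. The stretches with a peak were 3 of 10 in HOXC, 3 of 12 in HOXB and 1 of 2 in HOXD. None of the 4 in HOXA and none of the 8 among HOXB1 to HOXB9 had one. The longest stretch of the clusters, 418 bp at chr7:27142798-27143215 between HOXA2 and HOXA3, had no peak. Stretches in the rest of the 4 chromosomes reached 3295 bp. Their medians were 237 to 243 bp, against 217 to 304.5 bp in the clusters. The share with a peak was 36.6%, 36.6%, 38.1% and 23.2% in the rest of chromosomes 7, 17, 12 and 2. The part of stretch length in these shares was not tested.

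In base composition the clusters stood apart from their chromosomes. GC content was 51.8% in HOXA, 52.6% in HOXC and 51.0% in HOXD, where chromosomes 7, 12 and 2 have 40.8%, 40.8% and 40.2%. In HOXB it was 52.3% from HOXB1 to HOXB9 and 45.6% in the spacer, beside 45.5% for chromosome 17. The observed over expected number of CpG was 0.549 in HOXA, 0.421 in HOXC, 0.523 in HOXD and 0.437 from HOXB1 to HOXB9, and 0.243, 0.235, 0.224 and 0.286 in the chromosomes in the same order. Runs of at least 10 A or 10 T numbered 15.9, 14.5 and 18.3 per 100 kb in HOXA, HOXC and HOXD against 36.4, 37.5 and 33.2 in their chromosomes, and 25.7 among HOXB1 to HOXB9 and 48.3 in the spacer against 49.6. The spacer, which held every HOXB peak, was closest to its chromosome on these 3 measures. In tandem repeats the part from HOXB1 to HOXB9 was closer to it. Purine tandem repeats (at least 6 AG or 4 GAAA or GGAA units, either strand) numbered 13.2 per 100 kb in the spacer. They numbered 7.62 among HOXB1 to HOXB9 and 4.42 in chromosome 17. Runs of at least 8 CA or TG units numbered 6.58, 3.81 and 3.16 per 100 kb in the same order. Over the genome, windows of 100 kb with 50 to 52% GC held 14.5 peaks per Mb on average over the libraries, and the other GC classes between 11.5 and 15.6. The part of composition in the counts of the clusters was not tested.

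Genes that work with or regulate HOX genes were counted in the same way, and the share of all protein-coding genes with a peak was 29.1%, 30%, 33.6% and 34% in the 4 libraries. The TALE homeodomain proteins, which bind DNA together with HOX proteins, had a peak in 6, 7, 4 and 8 of 9 genes. Their median length was 140 kb, and PBX3 held a region called in all 4 libraries. Other homeobox genes related to HOX, such as EVX1, CDX2 and the DLX genes, had a peak in 2, 1, 2 and 3 of 19, with a median length of 6.37 kb. None of them held a region called in all 4 libraries. Among Trithorax-side regulators, 3, 2, 1 and 1 of 8 had a peak, and KDM6A, a demethylase of the Polycomb mark on histone H3, held a region called in all 4. Among Polycomb-side regulators the counts were 3, 4, 3 and 4 of 13, and EED and JARID2, subunits of the Polycomb complex that sets that mark, held such regions. The share of all protein-coding genes holding a region called in all 4 libraries was not counted. A peak in every library, at the same position or not, was found in 20.4% of them. PBX3, KDM6A, EED and JARID2 span 220, 240, 77.6 and 276 kb. These lists differ in gene length, and the part of length in their counts was not tested.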

How the data were processed

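The data were 6mA-IP-seq libraries of genomic DNA from MDA-MB-453 cells, 2 immunoprecipitated and 1 input for each siRNA. Per the study's methods and the submitters' processing notes, reads were filtered (Trimmomatic) and aligned to hg19 (Bowtie2 2.3.5), duplicates were dropped (SAMtools 1.9), and the authors called peaks per library with MACS2 at a p threshold of 1e-05. Which input served each call is not given in the sources used here, and the input libraries were not analysed here. The deposited peak lists hold a score, the fold enrichment at the summit (a ratio of pileup to local background, 1 added to each), and the −log10 p and −log10 q of each peak. Whole read depth is not known from these lists. The pileup at the summit and the local background were computed from fold and −log10 p, which gave a whole pileup for 100% of the peaks on the 4 HOX chromosomes (tolerance 0.02 in −log10 p). A peak absent from a list lay below the threshold of the authors' caller, which does not show that the mark was absent.

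Genes were taken from GENCODE v44 lifted to GRCh37, and sequences from the GRCh37 reference, the same build as hg19. Peaks were placed by their summit in a cluster (the span from the first to the last base of its HOX genes) or its flanks (100 kb on either side). The density in the rest of the chromosome was taken over bases without N. Peaks of the 4 lists that overlapped by at least 1 bp were merged into a region. Groups were compared by a two-sided exact permutation test with 6 assignments of the 4 libraries (smallest p 0.333), and a cluster with its chromosome by an exact sign-flip test over the 4 libraries (smallest p 0.125). Intervals are exact 95% Poisson intervals and cover counting error only. Windows of the length of a cluster were tiled along its chromosome, leaving out those with over 10% N. Scripts were checked on simulated peaks. The tools were matplotlib 3.10.9, pandas 2.3.3, scipy 1.17.1, numpy 2.4.6 and Python 3.11.15.

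The members and gene lists were chosen with earlier results of these data known. The genes and regions named were the HOX genes with a peak, every region in a cluster, flank regions called in at least 2 libraries, the regions nearest to each cluster, and genes of the related lists that held a region called in all 4 libraries. A member is not reported by name here and is left out of the figures. The measure of purine share and the setting without the HOXB spacer were chosen after seeing the data. Alternatives covered a −log10 q of at least 5, equal list lengths, leaving out each library, placing by overlap, flanks of 50 and 200 kb, full chromosome length, a gene body extended by 5000 bp or read by summit, other start sites, merging across 250 bp, and a block on the replicate number. The replicate numbers of the groups were treated as names, since deviations of libraries with the same number had a correlation of 0.0053 over 72537 regions.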

Additional observations from a re-analysis of the deposited data

How the results depend on the processing

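With 2 libraries a group, no setting could reach a p below 0.05 (smallest p 0.333 between groups and 0.125 over the 4 libraries), so the direction and size of the values are given. The ratio of the HOX clusters to their chromosomes stayed below 1 under each alternative. It was 0.824 with equal list lengths, 0.897 with full chromosome length, and 0.474 without the HOXB spacer and HOXB13, which takes out every HOXB peak. The flank ratio was 1.26 with flanks of 50 kb and 1.12 with 200 kb. The difference in cluster peaks between groups was 2.5, and it was 0 (exact permutation test, p = 1) with equal numbers of peaks in each list, where the flank difference of 4 became 0.5 (exact permutation test, p = 1). HOX genes with a peak averaged 1.25 per library, and 5.25 when the gene bodies were extended by 5000 bp on either side. Regions called only in Control numbered 0, but 1 with equal numbers of peaks and 2 with flanks of 200 kb. Regions called only in si-N6AMT1 numbered 1, but 2 among peaks with −log10 q from 5 upward and 2 with flanks of 200 kb.

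Leaving out each library in turn moved the cluster ratio between 0.818 and 0.923, the flank ratio between 0.979 (without si-N6AMT1 replicate 2, below the chromosome) and 1.13, the cluster difference between 1.5 and 3.5 peaks, the flank difference between 1.5 (without si-N6AMT1 replicate 2) and 6.5 (without si-N6AMT1 replicate 1), the mean number of HOX genes with a peak between 1 and 1.67, the median start distance between 58.5 and 72.0 kb, the regions called in every library left between 7 and 10, those only in Control between 0 and 3, and those only in si-N6AMT1 between 3 and 9. With 3 libraries a region needs fewer calls to count as confined to a group, which by construction raises the latter counts. Over all alternatives, 70 values kept their direction and their side of the threshold or, where no test was made, stayed near the main value. 12 values moved and 1 reversed. As no p could fall below 0.05, the side of the threshold was fixed in advance for every tested value. The 70 also include the flank difference that fell from 4 to 0.5 with equal numbers of peaks, so their number does not measure robustness.

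In a replicate block on the numbers in the labels, the differences of 2.5 peaks in the clusters and 4 in the flanks had p = 0.5, the smallest that 2 pairs allow in the exact sign-flip test. Same-numbered deviations had a correlation of 0.0053. The labels do not say whether libraries with the same number were prepared together, and this was not tested. The length of the clusters limits these results, since HOXA, at 107 kb, would hold only 1.43 to 1.85 peaks at the density of chromosome 7.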
